A study of Mus musculus with 12 samples.

Results

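Axon guidance genes of the semaphorin, ephrin, Slit and netrin systems were described in 12 bulk RNA-seq libraries of cultured mouse brain cells. Members were every gene whose symbol named a semaphorin, a plexin, neuropilin-1 or -2, an Eph receptor, an ephrin, a Slit, a Robo, a netrin, Dcc or an Unc5 receptor. That rule used names and no measured value, and it found 68 genes among 53932 identifiers. There were 20 semaphorins, 11 plexins and neuropilins, 14 Eph receptors, 8 ephrins, 7 Slits and Robos, and 8 genes of the netrin, Dcc and Unc5 group.

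Guidance cues steer growing axons and migrating cells by attraction or repulsion, acting through receptors that reshape the actin cytoskeleton. Secreted class 3 semaphorins bind neuropilins, which signal with plexins, while most membrane-bound semaphorins bind plexins directly. Ephrins sit on the cell surface and signal to Eph receptor tyrosine kinases on neighbouring cells, Slits repel through Robo receptors, and netrin-1 attracts through Dcc or repels through Unc5 receptors. Astrocytes and neural progenitors are known to carry several of these cues and receptors, and many of them have been studied in gliomas.

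All 4 groups were C57BL/6 cells with 3 libraries each. NSC were neurospheres from cortex of embryonic day 14.5, grown with EGF and FGF2 at 20 ng/mL each. Astrocytes were kept in a medium with 10% serum and came either from postnatal cortex sorted on GLAST beads or from differentiated neurospheres; the labels do not say which, and give their age as embryonic day 14.5. MIM-Astrocytes were such cells moved to MIM, a serum-free medium carrying up to 6 metabolites (methionine, threonine, glycine, putrescine, S-adenosylmethionine, cysteine). For astrocytes MIM also carried FGF2 at 20 ng/mL, so effects of metabolites, FGF2 and serum removal cannot be told apart. MIM-Astrocytes were collected by the fifth day, but the labels do not give the day of these libraries. Glioblastoma carried the tissue label cerebella and the age label E18.5, and how the tumour cells were made or cultured is not given in the sources used here. In comparisons with Glioblastoma, tumour state, brain region, age and culture therefore cannot be told apart. Nothing in the labels tells whether replicates were grown separately, so each p-value measures only the spread between libraries, which may be technical.

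Levels are in FPKM, an abundance scaled for transcript length and library size, so that genes can be compared per length. Differences are of log2(FPKM + 1), which understates the change of genes of low level. A gene was tested when it reached 1 FPKM in at least 3 libraries, and a difference was called at a Benjamini-Hochberg adjusted p under 0.05 over 16982 genes with limma. Summed FPKM ran from 515000 to 624000 in Astrocytes and from 812000 to 979000 in Glioblastoma, with the other libraries at 665000 to 812000. Scaling every library to a common total moved the median difference of all genes from 0.09 to -0.17 in MIM-Astrocytes against Astrocytes and from 0.23 to -0.26 in Glioblastoma against Astrocytes. The summed level of 7 astrocyte genes was 1600 to 1890 FPKM in Astrocytes, 1460 to 1860 in MIM-Astrocytes, 563 to 591 in Glioblastoma and 774 to 890 in NSC, so that Astrocytes and MIM-Astrocytes overlapped. Members of that list differed: Gfap was at 258 and 7.35 FPKM and Aqp4 at 397 and 35.5 FPKM in Astrocytes and MIM-Astrocytes, while Slc1a3 was at 396 and 860, S100b at 5.97 and 25.4, Slc1a2 at 54.3 and 73.9, Aldoc at 558 and 610 and Aldh1l1 at 70.8 and 75.5. The summed level of 4 cycling-cell genes was 5.32 to 5.65 FPKM in Astrocytes and 102 to 359 FPKM elsewhere, and their part in the differences from Astrocytes was not tested. Since these are bulk samples, fewer cells of a type and less RNA per cell cannot be told apart.

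Of the 68 genes, 51 passed the level filter and 50 were tested. Epha4 passed the level filter but had a failed estimate in NSC replicate 2, so it was fitted without that library. Under the filter were 17 genes, and their highest value in any library is given here. Among semaphorins it was 0.924 FPKM for Sema7a, 0.669 for Sema4a, 0.289 for Sema4f and 0.25 for Sema3g. Among Eph receptors it was 0.973 FPKM for Epha1, 0.709 for Epha3, 0.438 for Epha6, 0.149 for Epha10 and 0.0139 for Epha8, and among ephrins 1.24 for Efna3 and 1.11 for Efna5. Among the rest it was 1.01 FPKM for Unc5a, 0.761 for Slit1, 0.584 for Robo3, 0.287 for Slit3, 0.213 for Robo4 and 0.152 for Ntn5. Epha2, Sema3d, Sema3e and Unc5d reached 1 FPKM in libraries of a single group and so entered the test through the group in which they were high. In all 12 libraries 28 of the tested genes were at 1 FPKM or more. The heat map of these genes shows the most abundant per length, Plxnb2 and Sema6d, as bright rows, and Sema3b, Plxnb3 and Ephb3 among the rows that change colour between groups.

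**Figure D1:**
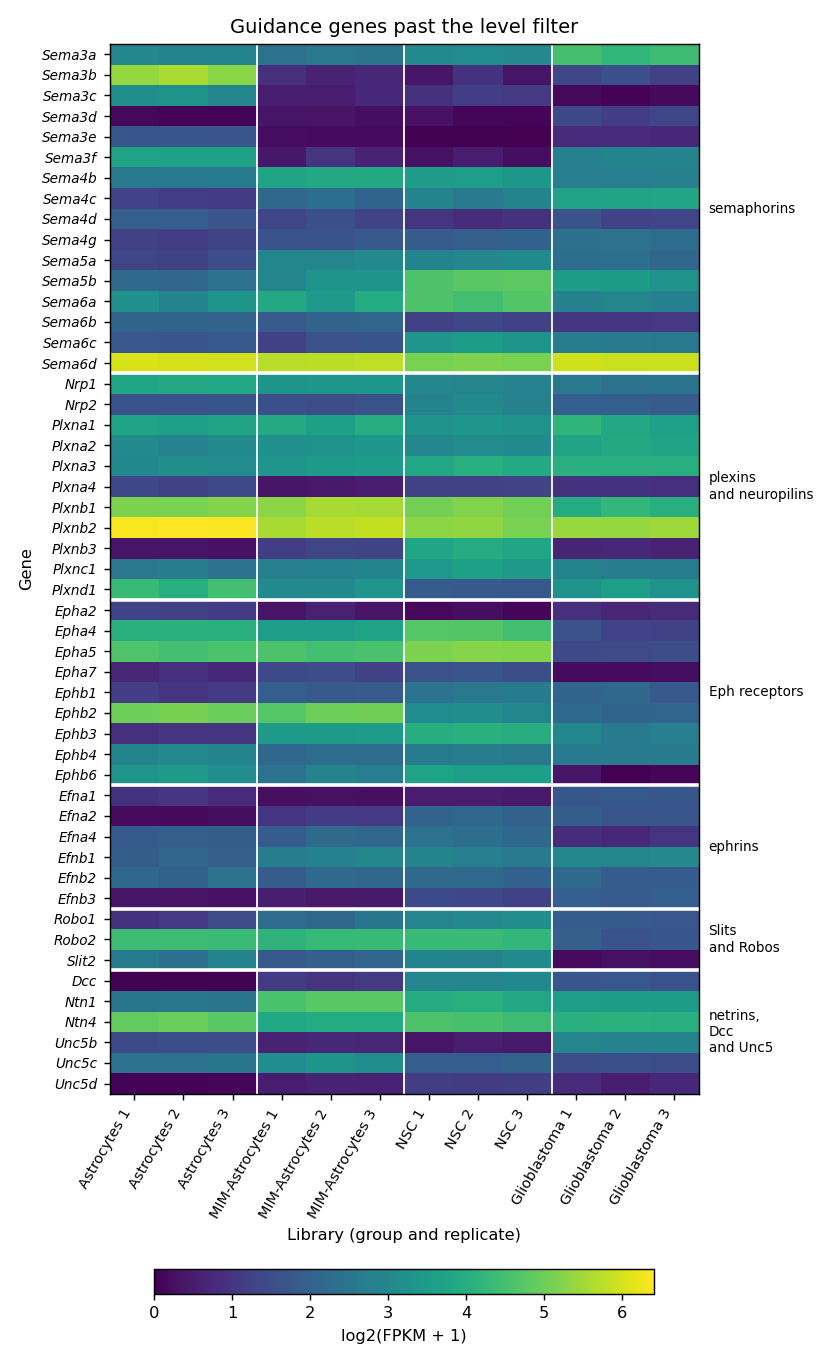
Level of the 51 guidance genes past the filter (rows, by class) in each of the 12 libraries (columns), coloured by log2(FPKM + 1). Sema3b is bright in Astrocytes at 41.0, 47.6 and 37.5 FPKM and dark elsewhere, and Epha5, Ephb6, Robo2 and Slit2 are dark in Glioblastoma.

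In MIM-Astrocytes against Astrocytes, the secreted semaphorins Sema3a, Sema3b, Sema3c and Sema3f fell, and Ephb3, Ntn1, Sema5a and Dcc were among those that rose. Sema3e was also called lower, but it entered the test through Astrocytes alone. Sema3d was called higher by 0.23 (SE 0.081, limma adjusted p = 0.0298), at means of 0.248 FPKM in MIM-Astrocytes and 0.0619 in Astrocytes. That call was lost with a common total FPKM and with quantile normalization. It was also lost without Astrocytes replicate 2 or 3, and without MIM-Astrocytes replicate 1 or 2. Genes that entered through a single group are kept in the counts of each comparison. Of the 50 tested genes 23 were called higher and 18 lower, or 82.0%, where 61.4% of all tested genes were called (34.8% higher and 26.6% lower). Groups did not overlap for 44 of the 50, and for 64.5% of all genes. A called difference of at least 1 was seen for 11, and for 17.5% of all genes. The split depended on the scale: with a common total FPKM it was 15 higher and 24 lower, and with median-of-ratios scaling 19 and 23. Over all genes the share of calls that were higher moved the same way, from 56.7% to 32.1% and 48.5%. The median difference was 0.06 over these genes and 0.09 over all, and the median size regardless of sign 0.66 and 0.40.

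In NSC against Astrocytes, Sema3b, Sema3c, Sema3f, Plxnd1 and Ephb2 were called lower, and Plxnb3, Ephb3 and Dcc higher. Sema3e was called lower as well, but it entered the test through Astrocytes alone. Here 24 genes were called higher and 18 lower, or 84.0%, beside 71.2% of all tested genes (37.7% higher and 33.4% lower). Of the 50, 45 had no overlap, against 73.0% of all genes, and 24 a called difference of at least 1, against 25.8%. With a common total FPKM they were 21 higher and 22 lower, and the higher share of calls over all genes went from 53.0% to 32.5%. Their median difference was 0.23 against 0.07 over all, and their median size 0.93 against 0.54. Both comparisons use the same Astrocytes libraries, so their likeness is given as values side by side and not as a test.

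MIM-Astrocytes against NSC had 17 genes called higher and 26 lower, or 86.0%, with 55.9% of all tested genes called (31.0% higher and 24.9% lower). There was no overlap for 42, against 62.3% of all genes, and a called difference of at least 1 for 9, against 9.89%. Ephb2, Plxnd1 and Unc5c lay higher in MIM-Astrocytes, and Plxnb3, Sema6c and Dcc lower. The median size of the difference was 0.57 over the guidance genes and 0.34 over all genes.

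Glioblastoma had low levels of Epha4, Epha5, Ephb2, Ephb6, Robo2 and Slit2, and high levels of Sema3a, Sema4c and Unc5b. Against NSC, 17 genes were called higher and 29 lower, or 92.0%, where 69.9% of all tested genes were called. Without overlap were 48, against 75.0% of all genes, and 19 had a called difference of at least 1, against 21.6%. Over all tested genes 44.8% were called higher and 25.1% lower in that comparison, and the median difference was -0.41 over the guidance genes and 0.19 over all. Against Astrocytes the counts were 23 higher and 22 lower, or 90.0%, beside 78.3% of all genes (47.0% higher and 31.3% lower), with no overlap for 46 (79.9% of all genes) and a called difference of at least 1 for 22 (36.3%). Against MIM-Astrocytes they were 20 and 20, or 80.0%, beside 69.8% of all genes (41.5% higher and 28.3% lower), with no overlap for 42 (74.5%) and a called difference of at least 1 for 18 (21.9%). With a common total FPKM the splits were 14 and 29 against NSC, 19 and 27 against Astrocytes and 16 and 21 against MIM-Astrocytes, and the higher share of calls over all genes went from 64.1% to 52.8%, from 60.0% to 36.9% and from 59.5% to 44.4%. Neuronal marker genes moved with this group: the summed level of 10 was 86.8 to 88.3 FPKM in Glioblastoma and 6.17 to 23.3 FPKM elsewhere, with Gap43 at 42.8 and Syt1 at 19.6 FPKM but Stmn2 at 0.00372 and Nefm at 0.0904 FPKM. Their part in the results on Glioblastoma was not tested.

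**Figure D2:**
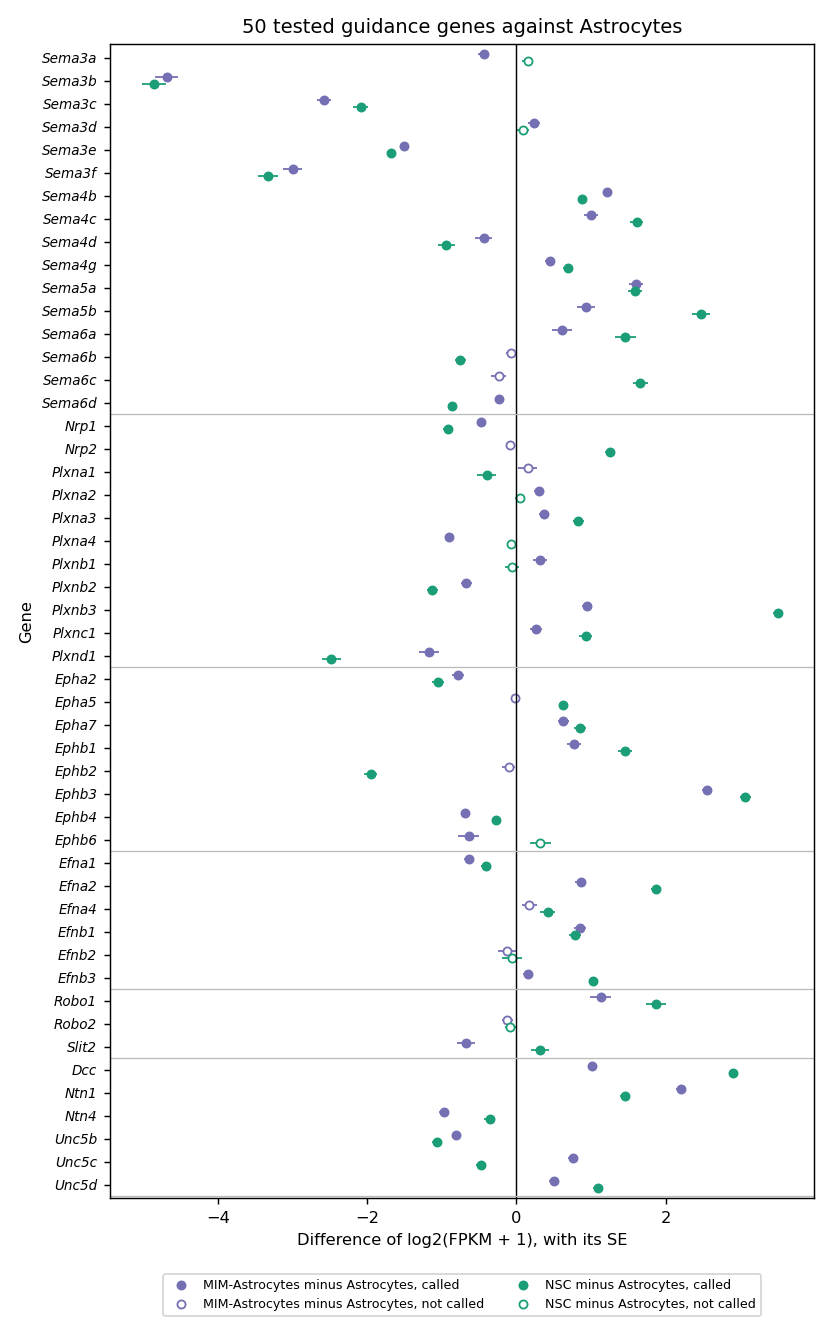
Difference of log2(FPKM + 1) from Astrocytes (horizontal axis, with its SE from limma) for the 50 tested genes, in MIM-Astrocytes (purple) and in NSC (green). Filled points are called and open points are not, and both colours lie on the same side of 0 for Sema3b, Sema3f, Ephb3, Ntn1 and Dcc, while for Ephb2 and Nrp2 the NSC point alone is filled.

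Among the 16 tested semaphorins, the 3 largest differences between MIM-Astrocytes and Astrocytes were those of the secreted class 3 genes Sema3b, Sema3f and Sema3c. Sema3b, a secreted cue that binds neuropilins, stood at 41, 47.6 and 37.5 FPKM in Astrocytes, 0.837, 0.519 and 0.643 in MIM-Astrocytes, 1.58, 1.94 and 1.31 in Glioblastoma and 0.313, 0.917 and 0.284 in NSC. All 3 Astrocytes libraries lay far above the other 9, while MIM-Astrocytes and NSC overlapped. In MIM-Astrocytes against Astrocytes the difference was -4.69 (SE 0.16, limma adjusted p = 2.4e-09), and the mean was 63 times lower. In Glioblastoma the difference from Astrocytes was -4.04 (SE 0.16, limma adjusted p = 3.45e-09).

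Sema3f, a ligand of neuropilin-2, read 11.9, 11.8 and 11.8 FPKM in Astrocytes, 0.338, 1 and 0.538 in MIM-Astrocytes, 5.77, 6.39 and 6.26 in Glioblastoma and 0.226, 0.424 and 0.186 in NSC. Astrocytes were high, Glioblastoma lay at about the middle, and MIM-Astrocytes and NSC were low and overlapped. From Astrocytes to MIM-Astrocytes the difference was -3.00 (SE 0.13, limma adjusted p = 1.21e-08). Glioblastoma exceeded NSC by 2.48 (SE 0.13, limma adjusted p = 4.93e-08). Sema3b and Sema3f are neighbours on chromosome 9, at chr9:107597674-107609229 and chr9:107681500-107710475 on the minus strand of GRCm38, with 72.3 kb between them.

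Sema3c, a secreted cue that signals through neuropilins and plexin-D1, gave 8.12, 8.87 and 6.8 FPKM in Astrocytes, 0.423, 0.427 and 0.627 in MIM-Astrocytes, 0.109, 0.0469 and 0.128 in Glioblastoma and 0.933, 1.25 and 1.09 in NSC. It fell from Astrocytes to MIM-Astrocytes by 2.58 (SE 0.097, limma adjusted p = 4.62e-09) and was lower still in Glioblastoma, where no library passed 0.128 FPKM. Sema3e, which binds plexin-D1 without a neuropilin, was at 2.26 ± 0.0496 FPKM (SD, n = 3) in Astrocytes, and at 0.142, 0.0168 and 0.7 FPKM in MIM-Astrocytes, NSC and Glioblastoma. Sema3a, the classic repellent acting through neuropilin-1, followed another order at 6.77, 6.35 and 6.43 FPKM in Astrocytes, 4.22, 4.91 and 4.52 in MIM-Astrocytes, 22, 18 and 20.0 in Glioblastoma and 7.34, 7.51 and 7.13 in NSC. Its Glioblastoma libraries were all above the other 9, and the difference from NSC was 1.33 (SE 0.072, limma adjusted p = 7.34e-08).

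Summed over 7 class 3 genes, the level was 70.6 ± 6.14 FPKM in Astrocytes, 6.75 ± 0.508 in MIM-Astrocytes, 30.2 ± 1.73 in Glioblastoma and 9.39 ± 0.739 in NSC (SD, n = 3). Sema3b made up 59.5% of that sum in Astrocytes, and Sema3a 66.1% in Glioblastoma. Each pair of groups was separate, with p = 0.1 by exact permutation (two-sided), the lowest value possible for 3 libraries a side. The 13 semaphorins of classes 4 to 7 summed to 93.1 ± 2.17, 107 ± 4.65, 111 ± 2.79 and 122 ± 2.60 FPKM in the same order of groups.

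Markers of another cell type were, like the summed secreted semaphorins, highest in Astrocytes, but the other groups stood in another order. A list of 12 meningeal fibroblast genes summed to 282 to 330 FPKM in Astrocytes, 21.0 to 23.7 in MIM-Astrocytes, 5.77 to 7.07 in Glioblastoma and 1.94 to 2.44 in NSC. In Astrocytes 5 of the 12 had a mean of 1 FPKM or more, led by Ogn at 164, Islr at 92.6 and Fmod at 43.1 FPKM. In Glioblastoma against Astrocytes, 5 of the 6 tested markers were called lower and 1 higher. The higher one was Twist1, at 0.263 FPKM in Astrocytes and 4.87 FPKM in Glioblastoma. Among the lower ones, Fmod and Col1a1 entered the test through Astrocytes alone, and Twist1 entered it through Glioblastoma alone. For Fmod, Col1a1 and Twist1 the direction of the call was therefore set by the filter. Of the defining collagen and matrix genes, Lum was listed at 0, and Col3a1, Col1a2 and Dcn were at 0.00846, 0.0289 and 0.0584 FPKM, with Col1a1 at 2.69 FPKM. Their part in the results on Astrocytes was not tested.

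Among membrane-bound semaphorins, Sema4b, Sema4c, Sema4g, Sema5a, Sema5b and Sema6a rose in both MIM-Astrocytes and NSC against Astrocytes, and Sema4d and Sema6d fell in both, except that Sema4g and Sema6a were not called in MIM-Astrocytes with a common total FPKM. Sema5b, a transmembrane semaphorin with thrombospondin repeats, stood at 3.66, 3.33 and 4.38 FPKM in Astrocytes, 6.59, 8.97 and 8.9 in MIM-Astrocytes, 10.5, 10.2 and 8.58 in Glioblastoma and 23.4, 26.3 and 26.8 in NSC. NSC were the highest and Astrocytes the lowest, with MIM-Astrocytes and Glioblastoma overlapping between them, and NSC exceeded Astrocytes by 2.47 (SE 0.12, limma adjusted p = 3.08e-08). Its relative Sema5a, a ligand of plexin-B3, read 1.54, 1.37 and 1.87 FPKM in Astrocytes, 6.66, 6.58 and 7.3 in MIM-Astrocytes, 4.02, 4.1 and 3.34 in Glioblastoma and 6.24, 6.82 and 7.29 in NSC. MIM-Astrocytes and NSC overlapped and both lay above Astrocytes, by 1.60 and 1.59 (limma adjusted p = 1.03e-07 and 7.83e-08).

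Sema4c, a ligand of plexin-B2, gave 1.46, 1.25 and 1.11 FPKM in Astrocytes, 3.52, 3.96 and 3.16 in MIM-Astrocytes, 12, 12.4 and 12.9 in Glioblastoma and 6.26, 5.13 and 6.39 in NSC. The 4 groups did not overlap and rose from Astrocytes through MIM-Astrocytes and NSC to Glioblastoma, with a Glioblastoma excess over Astrocytes of 2.57 (SE 0.092, limma adjusted p = 1.35e-09); 7.27% of its exon bases overlap a transcript on the other strand, which cannot be separated without the strandedness of the libraries. Sema6c read 2.36, 2.24 and 2.42 FPKM in Astrocytes, 1.39, 1.99 and 2.16 in MIM-Astrocytes, 5.44, 5.29 and 5.02 in Glioblastoma and 9.16, 10.6 and 8.91 in NSC. NSC were high, Glioblastoma intermediate, and the difference of MIM-Astrocytes from NSC was -1.90 (SE 0.1, limma adjusted p = 1.58e-07). Sema6d, a plexin-A1 ligand and the most abundant semaphorin per length in every group, was at 63 ± 1.11 FPKM in Astrocytes, 53 ± 1.46 in MIM-Astrocytes, 59.3 ± 1.52 in Glioblastoma and 34.3 ± 0.568 in NSC (SD, n = 3).

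Sema6a, which binds plexin-A2 and plexin-A4, was highest in NSC at 23.2 ± 1.91 FPKM, against 7.84 in Astrocytes, 12.6 in MIM-Astrocytes and 6.22 in Glioblastoma. Sema4b peaked in MIM-Astrocytes at 13.2 ± 0.727 FPKM. Sema4d, the plexin-B1 ligand, and Sema6b reached at most 2.81 and 3.23 FPKM in any library, and Sema3d passed 1 FPKM in Glioblastoma alone, at 1.62, 1.28 and 1.51 FPKM.

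**Figure D3:**
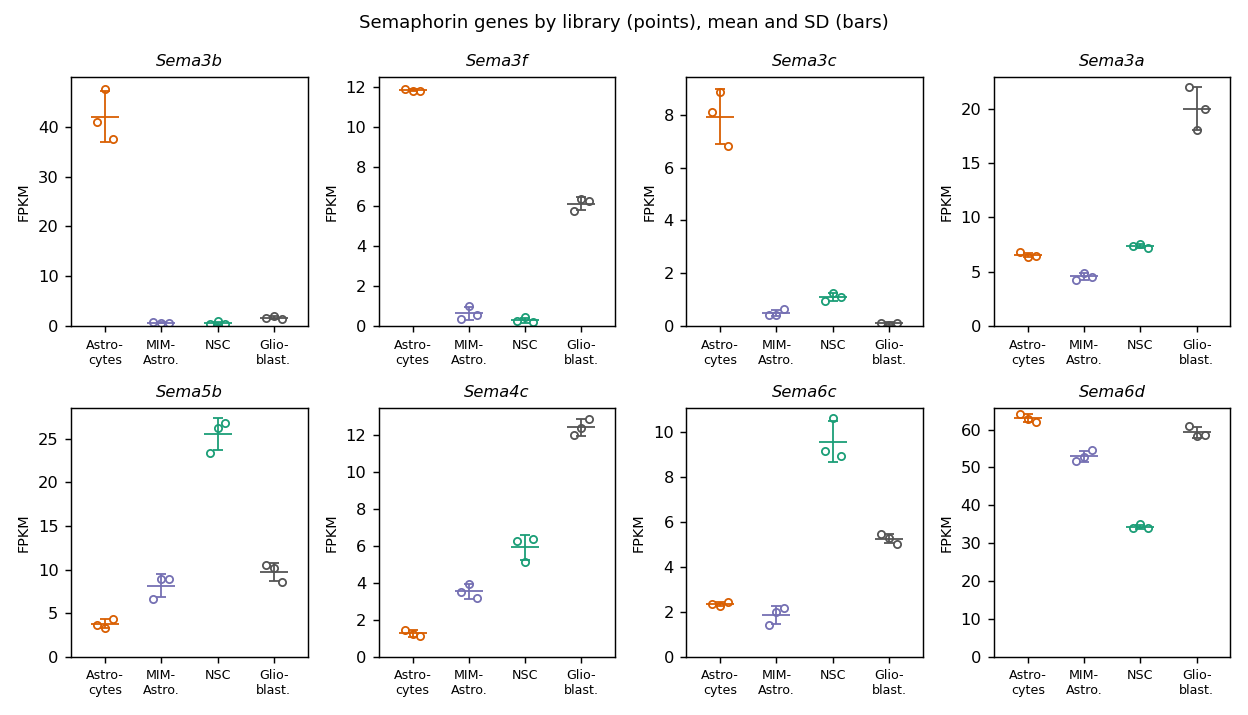
FPKM of 8 semaphorin genes (vertical axes, each from 0) in the 4 groups; circles are the 3 libraries, the wide bar is the mean and the error bar the SD. Sema3b, Sema3f and Sema3c are highest in Astrocytes, Sema3a and Sema4c in Glioblastoma, Sema5b and Sema6c in NSC, and Sema6d is lowest in NSC.

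Plexins are the main semaphorin receptors. Their summed level was 169 ± 4.20 FPKM in Astrocytes, 143 ± 11.3 in MIM-Astrocytes, 117 ± 3.06 in Glioblastoma and 128 ± 7.44 in NSC (SD, n = 3), and Plxnb2 supplied 48.6%, 36.0%, 35.9% and 28.9% of it in the same order of groups. Plxnb2, the receptor of Sema4c, fell from Astrocytes to MIM-Astrocytes by 0.67 (SE 0.075, limma adjusted p = 2.47e-05) while its ligand rose by 1.00 (limma adjusted p = 4.93e-06).

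Plxnb3, a B-class plexin that binds Sema5a, stood at 0.277, 0.292 and 0.231 FPKM in Astrocytes, 1.26, 1.55 and 1.5 in MIM-Astrocytes, 0.587, 0.652 and 0.562 in Glioblastoma and 12.6, 14.3 and 12.9 in NSC. Each NSC library lay far above every library of the other groups. NSC exceeded Astrocytes by 3.50 (SE 0.065, limma adjusted p = 2.76e-11), MIM-Astrocytes exceeded them by 0.94 (SE 0.065, limma adjusted p = 5.28e-07), and Glioblastoma lay below NSC by 3.16 (SE 0.065, limma adjusted p = 8.28e-11). Genes of the oligodendrocyte lineage were also highest in NSC for Pdgfra (24.4 FPKM against 0.375, 2.52 and 10.3 in Astrocytes, MIM-Astrocytes and Glioblastoma) and Sox10 (2.73 against 0.0426, 0.128 and 0.339). The summed level of all 8 listed genes of that lineage was 60.7 to 71.4 FPKM in Astrocytes, 433 to 502 in MIM-Astrocytes, 309 to 317 in Glioblastoma and 380 to 444 in NSC, with Mag at no more than 0.131 FPKM in any group mean. Their part in the Plxnb3 result was not tested.

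Plxnd1, the receptor of Sema3e, gave 19.3, 15.4 and 21.6 FPKM in Astrocytes, 7.21, 7.03 and 9.15 in MIM-Astrocytes, 8.63, 11 and 8.88 in Glioblastoma and 2.67, 2.46 and 2.39 in NSC. Astrocytes were high, NSC low, and the MIM-Astrocytes and Glioblastoma libraries overlapped between them. From Astrocytes it fell by 1.17 in MIM-Astrocytes and by 2.48 in NSC (limma adjusted p = 2.78e-05 and 5.14e-08). Plxnd1 is also known from blood vessels. The summed level of 10 endothelial marker genes was 2.95 to 3.08 FPKM in Astrocytes, 1.92 to 2.72 in MIM-Astrocytes, 7.25 to 7.56 in Glioblastoma and 1.63 to 2.16 in NSC. Of these, Kdr was at 1.76 FPKM in Astrocytes, 0.189 in MIM-Astrocytes, 0.207 in Glioblastoma and 0.103 in NSC, and was called lower in each group than in Astrocytes. Kdr entered the test through Astrocytes alone, so the direction of these calls was set by the filter. Egfl7 was highest in Glioblastoma at 5.48 FPKM. Cdh5 was listed at 0 in every group, and Tie1 and Cldn5 had group means of at most 0.0265 FPKM. The part of these markers in the Plxnd1 result was not tested.

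Plxnb1, the receptor of Sema4d, read 34.4, 33.6 and 36.1 FPKM in Astrocytes, 38.1, 46.6 and 45.6 in MIM-Astrocytes, 14.5, 17.9 and 15.2 in Glioblastoma and 32.3, 35.7 and 32.1 in NSC. Glioblastoma was the lowest, and its difference from NSC was -1.03 (SE 0.093, limma adjusted p = 3.45e-06). Between MIM-Astrocytes and Astrocytes the difference was 0.31 (SE 0.093, limma adjusted p = 0.0144), and it was not called without MIM-Astrocytes replicate 2 (0.26, limma adjusted p = 0.0561) or replicate 3 (0.27, 0.0531), and with a common total FPKM it was -0.019.

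The 4 class A plexins, partners of neuropilins and of class 6 semaphorins, were all tested. Plxna3 had its lowest mean in Astrocytes, at 7.55 ± 0.592 FPKM, and 10.1 ± 0.802, 14.2 ± 0.905 and 15.6 ± 0.158 FPKM in MIM-Astrocytes, NSC and Glioblastoma (SD, n = 3), and with a common total FPKM its difference between MIM-Astrocytes and Astrocytes was not called. Plxna4 was lowest in MIM-Astrocytes, at 0.36 ± 0.0495 FPKM against 1.55 in Astrocytes and 1.42 in NSC, and the difference from Astrocytes was -0.90 (SE 0.058, limma adjusted p = 3.1e-07). Plxna2 was highest in Glioblastoma, at 12.7 ± 0.689 FPKM, and its differences there from Astrocytes and MIM-Astrocytes were not called with a common total FPKM. Plxna1 ranged from 8.62 to 17.2 FPKM over the 12 libraries, and 10.7% of its exon bases lie under an antisense gene. Plxnc1, a receptor of Sema7a, was highest in NSC at 10.4 ± 0.964 FPKM.

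Neuropilins, the ligand-binding partners of plexins for class 3 semaphorins, were highest in different groups. Nrp1 stood at 12.8, 13.7 and 13 FPKM in Astrocytes, 8.94, 9.4 and 9.32 in MIM-Astrocytes, 4.96, 4.25 and 4.48 in Glioblastoma and 6.86, 6.55 and 6.11 in NSC. It was called lower at each step from Astrocytes through MIM-Astrocytes and NSC to Glioblastoma, with MIM-Astrocytes minus Astrocytes at -0.47 (SE 0.059, limma adjusted p = 5.68e-05) and Glioblastoma minus NSC at -0.43 (SE 0.059, limma adjusted p = 8.2e-05). Nrp2 read 2.08, 2.05 and 2.19 FPKM in Astrocytes, 1.94, 1.84 and 2.01 in MIM-Astrocytes, 2.75, 2.77 and 2.61 in Glioblastoma and 6.28, 7.04 and 5.89 in NSC, with NSC above every other library and a difference from Astrocytes of 1.25 (SE 0.06, limma adjusted p = 2.19e-08). In Glioblastoma against Astrocytes, Nrp2 differed by 0.26 (SE 0.06, limma adjusted p = 0.00269), and by -0.18 with a common total FPKM. The ratio of Nrp1 to Nrp2 was 6.27 ± 0.381 in Astrocytes, 4.79 ± 0.284 in MIM-Astrocytes, 1.69 ± 0.138 in Glioblastoma and 1.02 ± 0.0820 in NSC (SD, n = 3). Beside these receptors, the neuropilin-2 ligand Sema3f was at 11.8 FPKM in Astrocytes, where Nrp2 was at 2.1, and at 0.279 FPKM in NSC, where Nrp2 was at 6.4.

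The summed level of Eph receptors was lowest in Glioblastoma. Summed over 14 genes they stood at 90.1 ± 2.82 FPKM in Astrocytes, 87.6 ± 4.32 in MIM-Astrocytes, 23.1 ± 1.52 in Glioblastoma and 107 ± 3.36 in NSC (SD, n = 3). All Glioblastoma libraries (24.9, 22.5 and 22.0 FPKM) lay below the other 9, at the smallest p of the two-sided exact permutation test, 0.1, in each of the 3 comparisons. The EphA receptors went from 62.9 ± 2.33 FPKM in NSC to 5.56 ± 0.296 in Glioblastoma, and the EphB receptors from 44.2 ± 1.04 to 17.6 ± 1.23. The NSC sums over all Eph receptors and over EphA receptors include the failed Epha4 estimate of NSC replicate 2.

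Promoter sequence is shown for Epha5, Epha4 and Ephb6, which are 3 of the Eph receptors that were lowest in Glioblastoma, for Ephb3, which was lowest in Astrocytes, and for Plxnb3, because the genes differ in how many CG pairs surround their starts. Each run is the 150 bases before a RefSeq transcription start (GRCm38.p6), 5′ to 3′ on the strand of the gene, with CG pairs in capitals.
Epha5, chr5:84417383-84417532, minus strand: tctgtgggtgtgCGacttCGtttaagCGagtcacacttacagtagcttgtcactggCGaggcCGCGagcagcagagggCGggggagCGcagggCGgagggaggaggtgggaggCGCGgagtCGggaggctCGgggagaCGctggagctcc
Epha4, chr1:77515089-77515238, minus strand: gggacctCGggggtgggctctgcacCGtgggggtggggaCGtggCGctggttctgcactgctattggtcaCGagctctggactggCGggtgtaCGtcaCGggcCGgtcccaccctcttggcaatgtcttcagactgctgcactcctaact
Ephb6, chr6:41605361-41605510, plus strand: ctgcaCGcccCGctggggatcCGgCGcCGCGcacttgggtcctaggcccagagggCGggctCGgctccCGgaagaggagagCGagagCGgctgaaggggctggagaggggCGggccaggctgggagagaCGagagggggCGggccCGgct
Ephb3, chr16:21204645-21204794, plus strand: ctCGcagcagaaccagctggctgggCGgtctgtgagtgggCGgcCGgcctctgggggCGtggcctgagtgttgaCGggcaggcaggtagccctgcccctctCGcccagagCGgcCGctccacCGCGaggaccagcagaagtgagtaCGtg
Plxnb3, chrX:73756953-73757102, plus strand: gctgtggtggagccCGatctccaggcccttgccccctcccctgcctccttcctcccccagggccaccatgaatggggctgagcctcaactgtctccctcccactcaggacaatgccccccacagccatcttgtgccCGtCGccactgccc

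These stretches hold 14, 9, 15, 12 and 3 CG pairs, in the order printed. In the full RefSeq window of 300 bases (250 before the start and 50 after), CG was found 30 times for Epha5, 17 for Epha4, 34 for Ephb6, 23 for Ephb3 and 4 for Plxnb3. Of the 68 guidance genes 58 had an entry, and their median was 22.5 CG pairs against 7 over 32851 promoters of all genes; at least 15 pairs were present in 69.0% and 34.6%. GGGCGG, sought on both strands, was present in 72.4% of the 58 and 35.7% of all promoters, TATAAA in 3.45% and 13.6%, and CCAAT in 29.3% and 37.4%. Some genes have several RefSeq starts. The one nearest the annotated gene start was used for the guidance genes, and every one for the background. That nearest start lay 354843 bases from the annotated gene start for Robo1, 271370 for Sema3a, 37064 for Sema4d and 1611 for Plxna2. For the other guidance genes with an entry it lay at most 886 bases away. All of these are letter counts and not sites.

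Epha5, a receptor for ephrin-A ligands, stood at 23.9, 21.6 and 23.2 FPKM in Astrocytes, 23.5, 21.5 and 22.7 in MIM-Astrocytes, 1.71, 1.8 and 1.86 in Glioblastoma and 34.6, 36.7 and 36.1 in NSC. NSC were the highest, Astrocytes and MIM-Astrocytes overlapped, and Glioblastoma was 20.0 times lower than NSC. The difference of Glioblastoma from NSC was -3.72 (SE 0.053, limma adjusted p = 8.16e-12). Its relative Epha4, which binds ephrins of both classes, read 15.1, 15.9 and 15.1 FPKM in Astrocytes, 10.9, 11 and 12.2 in MIM-Astrocytes, 2.1, 1.44 and 1.36 in Glioblastoma and 25.4, 24.7 and 21.1 in NSC. Here the value 24.7 of NSC carries the failed status; without that library, Glioblastoma minus NSC was -3.21 (SE 0.12, limma adjusted p = 3.9e-08) and MIM-Astrocytes minus Astrocytes -0.41 (SE 0.11, limma adjusted p = 0.00973).

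Ephb6, an Eph receptor without kinase activity, gave 9.11, 10.0 and 7.78 FPKM in Astrocytes, 4.23, 6.3 and 5.72 in MIM-Astrocytes, 0.299, 0 and 0.0824 in Glioblastoma and 12.1, 11 and 11.2 in NSC, and was listed at 0 in a Glioblastoma library. Glioblastoma lay far below the rest, with a difference from NSC of -3.47 (SE 0.14, limma adjusted p = 7.45e-09). Epha7 was at 2.06 ± 0.173 FPKM in NSC and 0.148 ± 0.0225 in Glioblastoma (SD, n = 3), a difference of -1.41 (SE 0.077, limma adjusted p = 7.6e-08).

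The EphB receptors Ephb2 and Ephb3, which share ephrin-B ligands, moved in opposite directions from Astrocytes to NSC. Ephb2 stood at 31.1, 33.2 and 29.8 FPKM in Astrocytes, 25.5, 30.8 and 31.5 in MIM-Astrocytes, 3.6, 3.22 and 3.26 in Glioblastoma and 7.59, 7.89 and 6.72 in NSC. Astrocytes and MIM-Astrocytes overlapped and were high, and NSC differed from Astrocytes by -1.95 (SE 0.087, limma adjusted p = 1.16e-08). Ephb3 read 0.829, 0.936 and 1.02 FPKM in Astrocytes, 10.1, 10.2 and 10.4 in MIM-Astrocytes, 6.62, 5.32 and 5.7 in Glioblastoma and 14.8, 15.9 and 15 in NSC, so that every library outside Astrocytes exceeded 5 FPKM.

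Against Astrocytes, Ephb3 was higher by 2.55 (SE 0.069, limma adjusted p = 4.45e-10) in MIM-Astrocytes and by 3.07 (SE 0.069, limma adjusted p = 8.89e-11) in NSC. The ratio of Ephb2 to Ephb3 was 34.1 ± 4.27 in Astrocytes, 2.85 ± 0.282 in MIM-Astrocytes, 0.574 ± 0.0304 in Glioblastoma and 0.486 ± 0.0349 in NSC (SD, n = 3). For Ephb2 itself, MIM-Astrocytes minus Astrocytes was -0.10 (SE 0.087, limma adjusted p = 0.34). With median-of-ratios scaling and a common total FPKM that difference was -0.21 and -0.43 and was called lower.

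Ephb1, another ephrin-B receptor, gave 1.24, 0.994 and 1.13 FPKM in Astrocytes, 2.77, 2.47 and 2.59 in MIM-Astrocytes, 3.17, 3.41 and 2.43 in Glioblastoma and 4.43, 4.91 and 5.1 in NSC. Astrocytes were the lowest and NSC the highest, by 1.46 (SE 0.094, limma adjusted p = 2.16e-07), with MIM-Astrocytes and Glioblastoma overlapping. Ephb4, the receptor of ephrin-B2, ranged from 3.47 to 7.12 FPKM over the 12 libraries and was lowest in MIM-Astrocytes, at 3.72 ± 0.213 FPKM. Epha2 was highest in Astrocytes at 1.45, 1.37 and 1.2 FPKM and did not reach 1 FPKM elsewhere.

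Ephrins, the ligands, were of low level in every group. The 8 genes summed to 12.2 ± 0.227 FPKM in Astrocytes, 15.7 ± 1.46 in MIM-Astrocytes, 19.1 ± 0.687 in Glioblastoma and 19.2 ± 1.46 in NSC (SD, n = 3). The sums of NSC and Glioblastoma overlapped (two-sided exact permutation p = 1.0).

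Efnb1, an ephrin-B ligand of EphB receptors, stood at 2.7, 3.34 and 2.84 FPKM in Astrocytes, 5.62, 6.08 and 6.68 in MIM-Astrocytes, 6.78, 6.68 and 7.13 in Glioblastoma and 6.28, 5.86 and 5.36 in NSC. Astrocytes were the lowest, and MIM-Astrocytes exceeded them by 0.85 (SE 0.079, limma adjusted p = 5.77e-06). Efnb3, a further transmembrane ligand, read 0.284, 0.256 and 0.232 FPKM in Astrocytes, 0.44, 0.365 and 0.377 in MIM-Astrocytes, 2.76, 2.6 and 2.76 in Glioblastoma and 1.72, 1.58 and 1.42 in NSC. NSC exceeded Astrocytes by 1.03 (SE 0.056, limma adjusted p = 5.62e-08) and Glioblastoma exceeded NSC by 0.53 (SE 0.056, limma adjusted p = 1.21e-05). Efnb2, which pairs with Ephb4, ranged from 2.57 to 4.25 FPKM, its groups overlapped in all 6 comparisons and none was called; the widest difference was -0.22 (SE 0.13, limma adjusted p = 0.148) for Glioblastoma minus Astrocytes. That difference was called under each of the 3 other scalings and without Glioblastoma replicate 1, and Glioblastoma minus NSC was called with median-of-ratios scaling.

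The GPI-anchored ephrin-A ligands differed among themselves. Efna2 gave 0.146, 0.113 and 0.188 FPKM in Astrocytes, 0.994, 1.17 and 1.09 in MIM-Astrocytes, 2.7, 2.23 and 2.28 in Glioblastoma and 3.14, 3.44 and 2.98 in NSC. It was lowest in Astrocytes and highest in NSC, with a difference of 1.87 (SE 0.069, limma adjusted p = 2.89e-09). Efna1 read 0.901, 1.02 and 0.716 FPKM in Astrocytes, 0.191, 0.22 and 0.195 in MIM-Astrocytes, 2.28, 2.38 and 2.29 in Glioblastoma and 0.437, 0.429 and 0.38 in NSC. It was highest in Glioblastoma and lowest in MIM-Astrocytes, and its Glioblastoma excess over MIM-Astrocytes was 1.46 (SE 0.063, limma adjusted p = 1.27e-08). Efna4 read 2.54, 2.86 and 2.68 FPKM in Astrocytes, 2.62, 3.62 and 3.32 in MIM-Astrocytes, 0.784, 0.683 and 0.945 in Glioblastoma and 4.37, 3.99 and 3.5 in NSC, and was lower in Glioblastoma than in NSC by 1.46 (SE 0.1, limma adjusted p = 4.68e-07); 10.5% of its exon bases are shared with an antisense transcript.

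**Figure D4:**
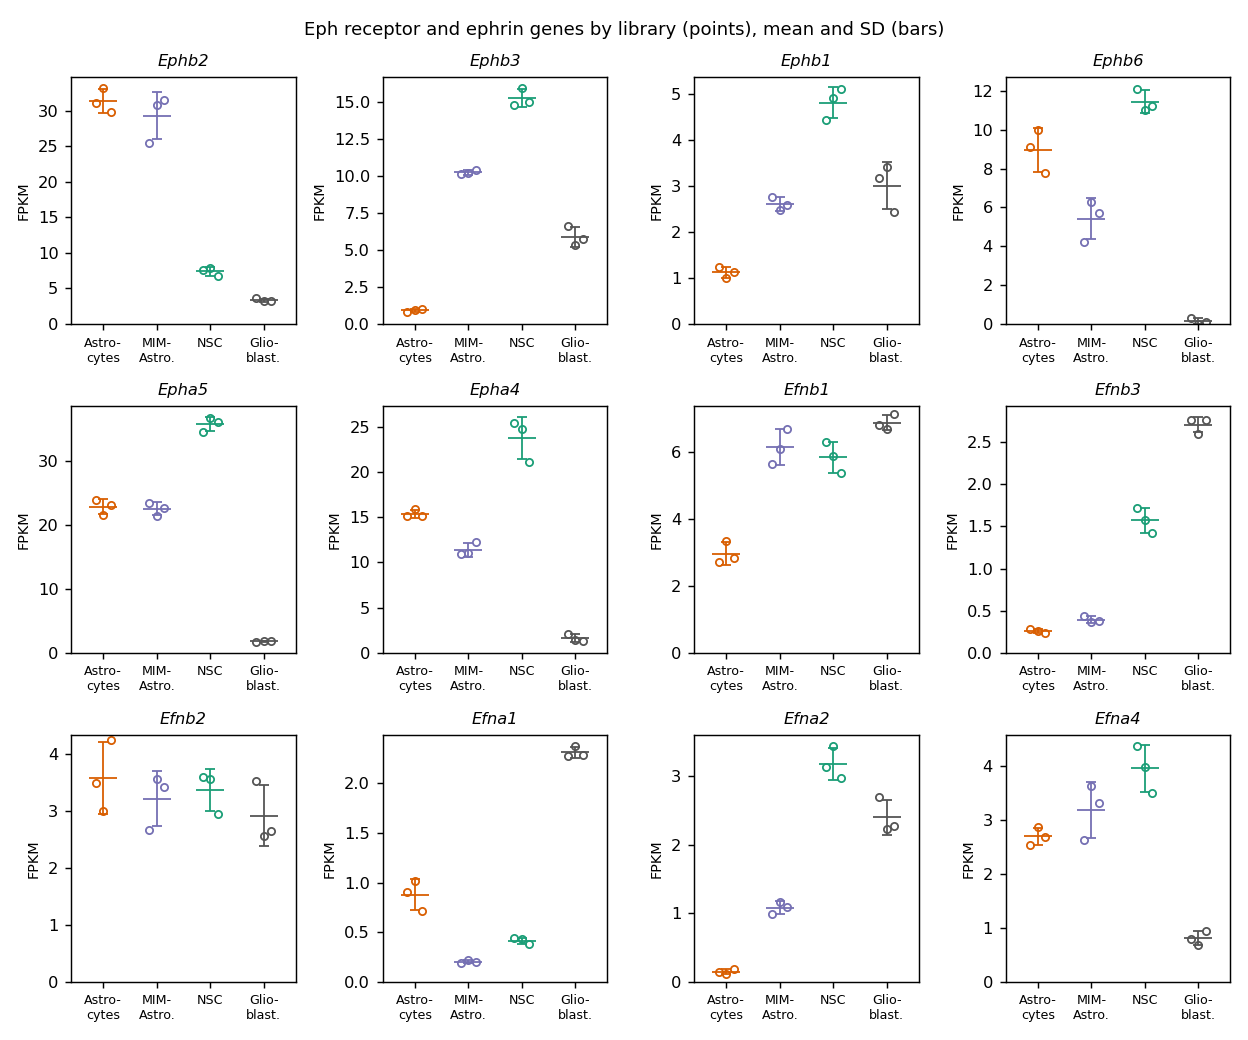
FPKM of 12 Eph receptor and ephrin genes (vertical axes, each from 0) in the 4 groups; circles are the 3 libraries, the wide bar is the mean and the error bar the SD. Epha5, Epha4, Ephb6 and Ephb2 are lowest in Glioblastoma, Ephb3 is lowest in Astrocytes, and Efnb2 overlaps between all groups.

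Slit2 and Robo2, a repellent and its receptor, were both low in Glioblastoma. Robo2 stood at 19.9, 20.2 and 19.5 FPKM in Astrocytes, between 16.9 and 19.1 in MIM-Astrocytes, at 2.87, 2.08 and 2.31 in Glioblastoma and 18.8, 19.2 and 18.1 in NSC. Astrocytes, MIM-Astrocytes and NSC lay between 16.9 and 20.2 FPKM, and Glioblastoma differed from NSC by -2.53 (SE 0.079, limma adjusted p = 1.31e-09). Astrocytes overlapped neither MIM-Astrocytes nor NSC, and neither difference was called unscaled. With median-of-ratios scaling, a common total FPKM and quantile normalization, MIM-Astrocytes minus Astrocytes was -0.23, -0.45 and -0.20 and was called lower. NSC minus Astrocytes was -0.47 with a common total FPKM and was called there. Slit2, a secreted ligand of Robo1 and Robo2, read 5.37, 4.11 and 6.24 FPKM in Astrocytes, 2.47, 2.83 and 3.29 in MIM-Astrocytes, 0.143, 0.214 and 0.151 in Glioblastoma and 6.4, 6.28 and 7.37 in NSC, and Glioblastoma differed from NSC by -2.71 (SE 0.12, limma adjusted p = 1.91e-08).

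Slit2 also differed between MIM-Astrocytes and Astrocytes, by -0.68 (SE 0.12, limma adjusted p = 0.000768), without overlap. Its difference of NSC from Astrocytes, 0.31 (SE 0.12, limma adjusted p = 0.0429), was lost in 16 of 21 alternatives, 9 of which left out 1 library, and was -0.03 with a common total FPKM. Without Astrocytes replicate 2 that difference was 0.18 (limma adjusted p = 0.157), and without NSC replicate 3 it was 0.25 (0.136). Robo1, the other main Slit receptor in brain, gave 0.901, 1.1 and 1.78 FPKM in Astrocytes, 3.7, 3.42 and 4.59 in MIM-Astrocytes, 2.61, 2.5 and 2.32 in Glioblastoma and 6.57, 7.07 and 7.81 in NSC. Astrocytes were the lowest and NSC the highest, by 1.87 (SE 0.14, limma adjusted p = 5.64e-07), and MIM-Astrocytes exceeded Astrocytes by 1.13 (SE 0.14, limma adjusted p = 4.03e-05). The ratio of Robo2 to Robo1 was 17.2 ± 5.65 in Astrocytes, 4.72 ± 0.633 in MIM-Astrocytes, 0.975 ± 0.135 in Glioblastoma and 2.63 ± 0.283 in NSC (SD, n = 3). Slit1, Slit3, Robo3 and Robo4 reached at most 0.761 FPKM in any library.

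Netrin-1 rose outside Astrocytes while netrin-4 fell. Ntn1, a secreted cue read by Dcc and Unc5 receptors, stood at 4.66, 4.77 and 4.5 FPKM in Astrocytes, 22.6, 26.1 and 26.3 in MIM-Astrocytes, 11, 10.7 and 10.6 in Glioblastoma and 14.7, 15.7 and 13.4 in NSC. MIM-Astrocytes were the highest, the 4 groups did not overlap, and the difference from Astrocytes was 2.20 (SE 0.068, limma adjusted p = 1.12e-09). Ntn4, a netrin known to bind laminin, read 28.1, 30.6 and 26.5 FPKM in Astrocytes, 13.1, 14.5 and 14.4 in MIM-Astrocytes, 15.7, 16 and 15.3 in Glioblastoma and 23.4, 22.5 and 20.1 in NSC, with MIM-Astrocytes minus Astrocytes at -0.97 (SE 0.071, limma adjusted p = 8e-07). The ratio of Ntn1 to Ntn4 was 0.164 ± 0.00728 in Astrocytes, 1.79 ± 0.0488 in MIM-Astrocytes, 0.689 ± 0.0167 in Glioblastoma and 0.665 ± 0.0350 in NSC (SD, n = 3).

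Dcc, the receptor for attraction by netrin-1, gave 0.0294, 0.0261 and 0.0185 FPKM in Astrocytes, 1.11, 0.965 and 1.12 in MIM-Astrocytes, 2.31, 2.33 and 2.05 in Glioblastoma and 6.57, 6.53 and 6.9 in NSC. Astrocytes were near 0 in all 3 libraries and NSC were the highest. NSC exceeded Astrocytes by 2.90 (SE 0.054, limma adjusted p = 2.8e-11), and MIM-Astrocytes minus NSC was -1.89 (SE 0.054, limma adjusted p = 3.79e-09). Set beside Ntn1, MIM-Astrocytes had the highest level of the ligand and 1.07 ± 0.0892 FPKM of Dcc, while NSC had 14.6 and 6.66 ± 0.204 FPKM. Neo1, the related receptor neogenin, was far above Dcc in every group, at 70.7 ± 0.631 FPKM in Astrocytes, 42.3 ± 0.945 in MIM-Astrocytes, 33 ± 0.195 in Glioblastoma and 54.3 ± 2.2 in NSC (SD, n = 3).

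The Unc5 receptors, which mediate repulsion by netrin-1, were highest in different groups. Unc5b stood at 1.66, 1.93 and 1.88 FPKM in Astrocytes, 0.569, 0.65 and 0.612 in MIM-Astrocytes, 6.55, 6.17 and 6.27 in Glioblastoma and 0.296, 0.4 and 0.345 in NSC. Glioblastoma exceeded NSC by 2.44 (SE 0.056, limma adjusted p = 1.49e-10), with no library of another group above 1.93 FPKM. Unc5c read 4.33, 4.23 and 4.67 FPKM in Astrocytes, 7.73, 8.94 and 7.82 in MIM-Astrocytes, 1.88, 1.98 and 1.84 in Glioblastoma and 2.75, 2.77 and 3.11 in NSC, highest in MIM-Astrocytes, where it exceeded Astrocytes by 0.76 (SE 0.065, limma adjusted p = 2.83e-06) and NSC by 1.24 (SE 0.065, limma adjusted p = 1.45e-07). Unc5d passed 1 FPKM in NSC alone, at 1.23, 1.19 and 1.29 FPKM.

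**Figure D5:**
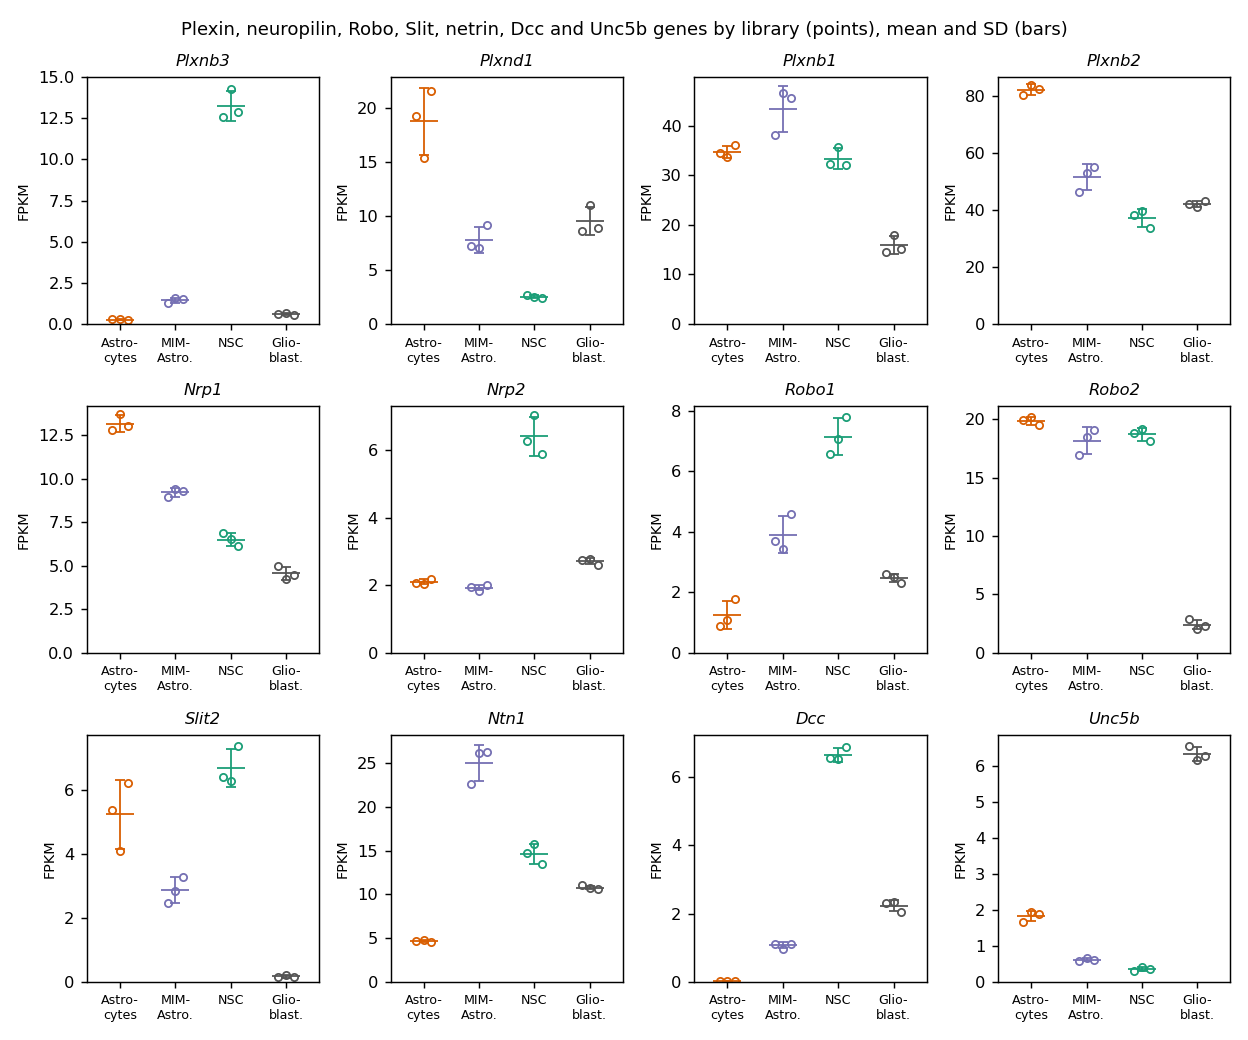
FPKM of 12 plexin, neuropilin, Robo, Slit, netrin, Dcc and Unc5b genes (vertical axes, each from 0) in the 4 groups; circles are the 3 libraries, the wide bar is the mean and the error bar the SD. Plxnb3 and Dcc are highest in NSC, Ntn1 in MIM-Astrocytes and Unc5b in Glioblastoma, where Robo2 and Slit2 are lowest.

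Other genes of these pathways were read from 2 lists, 32 extracellular partners and co-receptors and 52 intracellular effectors, of which 29 and 51 were tested. In MIM-Astrocytes against Astrocytes 13 partners were called higher and 11 lower, and 23 effectors higher and 16 lower, beside 34.8% and 26.6% of all genes. The median difference was 0.12 for partners and 0.11 for effectors, against 0.09 over all genes. Among partners Sdc3, a heparan sulphate proteoglycan, differed by 3.81, Dscam, a netrin-binding adhesion molecule, by 2.04, Vasn by -3.17 and Met, a receptor kinase that associates with B plexins, by -1.97. Among effectors Mical2, an oxidase that takes actin filaments apart, differed by 2.29, Crmp1, a collapsin response mediator, by 1.94, and Rnd1, a small GTPase that binds plexins, by -2.39, and each of these was called. Met entered the test through Astrocytes alone, so the direction of its call was set by the filter.

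In NSC against Astrocytes 15 partners were called higher and 12 lower, and 26 effectors higher and 18 lower, beside 37.7% and 33.4% of all genes. Sdc3 differed by 3.37, Draxin, a secreted repellent that binds Dcc and netrin-1, by 3.05 and Mical1 by 2.88. Among those called lower, Vasn differed by -2.75, Rnd1 by -2.64 and Met by -2.19, but Met entered the test through Astrocytes alone. In MIM-Astrocytes against NSC the counts were 11 and 13 partners and 17 and 21 effectors, beside 31.0% and 24.9% of all genes, with Cntn1 at 1.87, Mical1 at -2.45 and Draxin at -2.40. Draxin stood at 2.86 ± 0.0521 FPKM in Astrocytes, 5.06 ± 0.243 in MIM-Astrocytes, 0.255 ± 0.0292 in Glioblastoma and 31 ± 1.45 in NSC (SD, n = 3).

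In Glioblastoma against NSC 10 partners were called higher and 14 lower, and 21 effectors higher and 19 lower, beside 44.8% and 25.1% of all genes. Cntn1, an adhesion molecule, was higher by 3.07, Itgb1 by 1.74 and Pak1, a kinase downstream of Rac and Cdc42, by 1.65. Draxin was lower there, with a difference of -4.67, as were Mical2 (-3.52), the receptor phosphatase Ptprd (-2.84) and Rgma, a ligand of neogenin (-2.75). Against Astrocytes 16 partners and 22 effectors were called higher and 12 and 18 lower, beside 47.0% and 31.3% of all genes. Against MIM-Astrocytes 13 and 20 were higher and 11 and 13 lower, beside 41.5% and 28.3%.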

How the data were processed

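Bulk RNA-seq was made from total RNA of 12 libraries; the aligner and the strandedness are not given in the sources used here. The authors deposited 1 gene table per library with levels in FPKM, made with Cufflinks on GRCm38 per the submitters' processing notes, and with a status for each estimate; no counts were used, so depth is unknown. Epha5 is on 2 lines, which were added. Genes needed 1 FPKM or more in at least 3 libraries and an OK status in all 12. The model, run in limma 3.58.1 (R 4.3.3) on log2(FPKM + 1), held a mean for each group; 12 libraries left 8 residual degrees of freedom, and the prior followed the trend in level. Tests were two-sided, with p-values adjusted by Benjamini-Hochberg over 16982 genes for each of 6 comparisons and called under 0.05. The fit was tested on simulated data. Sums and figures used Python 3.11.15, pandas 2.3.3, NumPy 2.4.6 and matplotlib 3.10.9, gene positions GENCODE M21, and promoters RefSeq tables. Over the guidance genes the Cufflinks interval had a median upper half-width of 8.34% of the value at 5 to 20 FPKM and 15.9% at 1 to 2 FPKM. In each of 6 classes, values in all libraries were given for up to 5 tested members with a mean of 2 FPKM or more in a group, by the widest range of group means, and for the 3 largest called differences each way per comparison without overlap; ligands and receptors were set side by side, other members given by level, and up to 4 partner and effector genes each way named. The members and lists were chosen with earlier results of these data known. The alternatives were other pseudocounts, filters, scalings, a replicate block, 6 libraries only and leaving out each library.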

Additional observations from a re-analysis of the deposited data

How the results depend on the processing

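With only genes of a mean of 5 FPKM or more, 24 guidance genes were tested, and the calls were 11 higher and 9 lower in MIM-Astrocytes against Astrocytes, 10 and 9 in NSC against Astrocytes, 10 and 11 in MIM-Astrocytes against NSC, 8 and 13 in Glioblastoma against NSC, 9 and 11 against Astrocytes and 7 and 11 against MIM-Astrocytes; fewer genes were tested. With a common total FPKM, 15 were higher in MIM-Astrocytes against Astrocytes, and of 80 partner and effector genes 20 were higher in Glioblastoma against NSC (31 unscaled), and 19 higher and 38 lower against MIM-Astrocytes (33 and 24 unscaled, and 39 lower with median-of-ratios scaling). Among the 31 genes tracked under each alternative, the direction turned for Efnb3 in MIM-Astrocytes against Astrocytes with quantile normalization (-0.011), for Plxnb1 there (-0.019), Slit2 in NSC against Astrocytes (-0.03) and Nrp2 in Glioblastoma against Astrocytes (-0.18) with a common total FPKM, and for Efnb1 in Glioblastoma against NSC with median-of-ratios scaling (-0.0039). Among the other called members it turned for Plxna2 and Plxnc1 in MIM-Astrocytes against Astrocytes with a common total FPKM, and under all 3 other scalings for Sema4b in Glioblastoma against Astrocytes and Sema6d in Glioblastoma against MIM-Astrocytes; the cause was not tested. Of 166 called differences of these genes, 154 lost the call or turned in none of the 21 alternatives in which they could be tested, and 12 did in at least 1; stricter filters and smaller sets of libraries left some genes untested. Leaving out 1 library gave 20 to 22 higher and 16 to 19 lower in MIM-Astrocytes against Astrocytes, 22 to 25 and 16 to 18 in NSC against Astrocytes, 14 to 18 and 24 to 27 in MIM-Astrocytes against NSC, 15 to 18 and 28 to 29 in Glioblastoma against NSC, 22 to 24 and 20 to 23 against Astrocytes, and 18 to 21 and 20 to 21 against MIM-Astrocytes. With the replicate block the calls in the same order were 23 and 18, 24 and 18, 17 and 26, 16 and 29, 23 and 23, and 20 and 20. Deviations from the group means correlated weakly between same-numbered libraries (r -0.058 to 0.097) and between differently numbered ones (-0.121 to 0.0736). For Astrocytes and NSC, same-numbered libraries gave 0.0436, 0.0838 and 0.0970, and differently numbered ones -0.0705 to -0.00324. The labels do not say that a number marks a shared culture, so the numbers were not taken as pairs. Depth is unknown, so values under 1 FPKM are the least precise.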

Other observations

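Several guidance genes lie close together on GRCm38. Sema3d, Sema3a and Sema3e follow each other on chromosome 5 with 536 and 423 kb between neighbours, and had their highest means in Glioblastoma, Glioblastoma and Astrocytes. Robo1 and Robo2 lie 846 kb apart on chromosome 16, and were highest in NSC and in Astrocytes. Ephb2 and Epha8 lie 93.4 kb apart on chromosome 4, where Ephb2 reached 33.2 FPKM and Epha8 at most 0.0139 FPKM. Over the 12 libraries, which fall into 4 groups, the members whose log2(FPKM + 1) ran most like Sema3b were Sema3e (Pearson r = 0.959), Sema3c (0.903), Plxnb2 (0.902), Epha2 (0.888) and Sema3f (0.824). These values follow the group means and carry no test. Sema3e and Epha2 passed the level filter through Astrocytes alone, the group where Sema3b was highest, so part of their likeness was set by the filter.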
